A study of Mus musculus with 6 samples.

Results

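The 51 genes described here build the mitotic spindle, attach chromosomes to it, separate the chromosomes and divide the cell. They were taken by gene name from the deposited table, and all 51 were found among its 18491 genes. Their transcripts were counted by RNA sequencing in mouse bone marrow cells sorted by flow cytometry and labelled as haematopoietic stem progenitor cells, the source of all blood cells. Of the 6 libraries, 3 were labelled wild type and 3 Robo1 knockout. All 6 came from mice 8 months after poly(I:C), which mimics viral RNA and raises interferon. The series' design describes 3 doses, which switch on Mx1-cre, an interferon-inducible recombinase active in blood cells and in other tissues such as liver, to delete Robo1, a receptor for Slit guidance proteins. The labels conflict with this design: titles and treatment fields name a scramble shRNA control and an shRNA against ROBO1 for the same libraries, the treatment field of the knockout libraries names ROBO1, ROBO2 and ROBO3 knockdown in turn, and their genotype field reads ROBO1 knockdown. Groups follow each sample's description, WT or KO. Strain, age at injection and whether wild-type mice carried Mx1-cre are not given in the labels. Neither is a separate animal for each library, so every p-value reflects the spread among libraries alone, and part of that spread may be technical. Expression of Robo1 is not analysed here, so the labels were not checked against it.

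In a dividing cell, cyclin A and cyclin B activate the kinase Cdk1 to start mitosis, and the spindle assembly checkpoint then holds the anaphase-promoting complex in check until every chromosome is attached at its kinetochore. Once released, this ubiquitin ligase destroys securin and cyclin B, separase opens the cohesin rings, and the central spindle and a contractile ring split the cell. In blood-forming tissue these transcripts mark cells that are cycling, which committed progenitors do often and long-term stem cells rarely.

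Many of these genes share promoter letters that are known from G2- and M-phase genes: CCAAT, the sequence bound by NF-Y, and the CHR elements TTTGAA and TTCGAA, through which the MuvB complex acts. The following stretches show 4 genes that were higher in knockout (Cks2, Ube2c, Cdc20, Cdk1) and 4 that were lower (Racgap1, Kif22, Mki67, Pttg1). They include the largest rise (Cks2) and the deepest fall (Racgap1) described below. The choice does not follow the size of the change throughout, since Kif20b (log2 -0.69) and Cks1b (0.67) are not shown. The stretches run from 120 bases before to 30 bases after the gene start in RefSeq on GRCm38.p6, 150 bases each, 5′ to 3′ on the gene's strand. Capitals mark these motifs on either strand, so that CCAAT can also be read as ATTGG and the element TTTGAA can also be read as TTCAAA.
Cks2: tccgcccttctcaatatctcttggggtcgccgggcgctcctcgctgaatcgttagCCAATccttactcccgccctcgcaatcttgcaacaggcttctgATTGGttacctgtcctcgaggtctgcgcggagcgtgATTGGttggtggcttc
Ube2c: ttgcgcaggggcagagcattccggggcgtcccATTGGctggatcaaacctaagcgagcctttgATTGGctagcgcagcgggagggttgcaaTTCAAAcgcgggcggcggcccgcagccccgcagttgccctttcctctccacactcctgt
Cdc20: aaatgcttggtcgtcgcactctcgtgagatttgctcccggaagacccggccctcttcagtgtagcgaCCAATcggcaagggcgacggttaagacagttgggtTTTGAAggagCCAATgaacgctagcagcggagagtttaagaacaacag
Cdk1: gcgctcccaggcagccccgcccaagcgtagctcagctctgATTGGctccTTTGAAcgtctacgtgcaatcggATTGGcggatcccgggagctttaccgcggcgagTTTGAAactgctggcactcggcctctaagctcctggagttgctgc
Racgap1: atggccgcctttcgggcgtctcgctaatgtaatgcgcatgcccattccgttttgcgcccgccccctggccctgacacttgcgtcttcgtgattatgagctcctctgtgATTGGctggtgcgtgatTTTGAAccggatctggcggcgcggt
Kif22: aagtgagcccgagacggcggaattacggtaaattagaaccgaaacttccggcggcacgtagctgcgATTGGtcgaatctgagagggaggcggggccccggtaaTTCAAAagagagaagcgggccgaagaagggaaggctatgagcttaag
Mki67: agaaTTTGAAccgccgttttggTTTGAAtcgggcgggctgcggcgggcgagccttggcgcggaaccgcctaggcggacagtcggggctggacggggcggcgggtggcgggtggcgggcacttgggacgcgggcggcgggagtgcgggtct
Pttg1: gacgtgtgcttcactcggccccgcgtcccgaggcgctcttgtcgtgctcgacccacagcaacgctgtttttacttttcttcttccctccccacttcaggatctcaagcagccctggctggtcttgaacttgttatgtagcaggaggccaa
These stretches are Cks2 at chr13:51645112-51645261 and Ube2c at chr2:164769809-164769958 on the plus strand, and Cdc20 at chr4:118437314-118437463, Cdk1 at chr10:69352883-69353032, Racgap1 at chr15:99651627-99651776, Kif22 at chr7:127042391-127042540, Mki67 at chr7:135716350-135716499 and Pttg1 at chr11:43425952-43426101 on the minus strand. Cks2 holds CCAAT at 3 places, and Ube2c, Cdc20 and Cdk1 hold it at 2 places each. Cdk1 has TTTGAA at 2 places, and Ube2c and Cdc20 have 1 each. Racgap1 and Kif22, both lower in knockout, also hold 1 of each motif. The Mki67 stretch holds TTTGAA at 2 places and no CCAAT, and the Pttg1 stretch holds none of these letters. Sites outside these stretches are not shown. In the longer promoters counted in the next paragraph, Mki67 holds CCAAT at 3 places, Kif22 at 2, Racgap1 at 1 and Pttg1 at none. There Ube2c holds it at 6 places, Cks2 at 4, Cdk1 at 3 and Cdc20 at 2. TTTGAA is then at 2 places in Kif22 and unchanged in the other genes shown. A match is a description of the sequence only.

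RefSeq promoters of 300 bases, from 250 before to 50 after the start, were matched for 44 of the 51 genes. Entries were not matched for Ccna2, Aurkb, Kif20a, Tpx2, Spc24, Incenp and Smc4. On either strand, CCAAT stood in 33 of the 44 (75%), against 41.1% of all 27025 genes in the promoter table, where a gene counts if any of its promoters of this length holds the letters. TTTGAA stood in 34 of the 44 (77.3%), against 20.2% of all genes, and TTCGAA in 3 (6.82%), against 1.8%. CCAAT together with either CHR element was found in 30 of the 44 (68.2%), against 8.61% of all genes. Among the matched genes, CCAAT was present in 10 of 11 that were higher in knockout, 4 of 10 that were lower and 19 of 23 that did not pass the test described next. CCAAT at 2 or more places was present in 9, 3 and 11 of these, respectively, and TTTGAA in 9, 7 and 18. These differences between groups of genes are a description and carry no test.

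The direction of the whole set depended on how libraries were scaled. Total counts were 42235077 to 58106099 a library. In wild type the 100 most abundant genes took 42.3 to 43.3% of counts, and in knockout they took 59.7 to 60.8%. TMM, a scaling that trims the most extreme genes and centres the rest, gave factors of 1.44 to 1.52 in wild type and 0.660 to 0.685 in knockout. With total counts the median log2 difference over all 15474 genes tested was -1.22, against -0.09 with TMM. Together the 51 genes took 0.458%, 0.501% and 0.480% of wild-type counts, and only 0.253%, 0.265% and 0.267% of knockout counts. On the TMM scale their summed level was 3191, 3300 and 3218 CPM (counts scaled to a common library size) in wild type and 3828, 3863 and 3924 CPM in knockout. The knockout libraries were therefore lower in the first measure and higher in the second, without overlap in either. Abundant genes weigh most in the TMM sum. Mean levels went from 124 to 303 CPM for Cks2, 260 to 413 CPM for Cks1b and 367 to 503 CPM for Bub3. Taken gene by gene, as described below, 14 of the 51 rose with TMM and 12 fell, with a median log2 difference of -0.07. With total counts the median log2 difference of the 51 was -1.21, near that of all genes. In bulk RNA, changes in the number of dividing cells, in RNA of these genes per cell and in RNA of other genes cannot be told apart.

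Marker lists of other blood lineages also differed in their summed level between the groups, in several lists through a few abundant genes. Summed over 12 neutrophil lineage genes, the TMM-scaled level was 84915 to 95266 CPM in wild type and 265249 to 281131 CPM in knockout, with 8 of the 12 higher. Mpo, the neutrophil myeloperoxidase, made up 47357 to 51007 CPM of this in wild type and 144696 to 152729 CPM in knockout. The 10 eosinophil and basophil genes summed to 6031 to 7207 CPM in wild type and 45135 to 50844 CPM in knockout (7 higher), most of it Prg2, a granule protein. The 10 erythroblast genes summed to 912 to 1200 CPM and 2931 to 3518 CPM (2 higher, 2 lower), carried by the globins Hba-a1 and Hbb-bs, while Klf1 stood at 16.8 to 19.0 CPM and 11.8 to 14.9 CPM. The 10 monocyte and macrophage genes summed to 802 to 896 CPM and 2984 to 3375 CPM (2 higher, 1 lower), carried by Ly6c2 at 679 to 766 CPM and 2861 to 3256 CPM, while Cd68 stood at 56.2 to 56.6 CPM and 31.5 to 35.7 CPM. In contrast, the 12 stem and progenitor genes that define the labelled cells summed to 213 to 219 CPM in wild type and 232 to 238 CPM in knockout (2 higher, 3 lower), with Kit, the stem cell factor receptor, at 12.3 to 15.7 CPM and 16.6 to 17.2 CPM and Cd34 at 103 to 111 CPM and 101 to 102 CPM. The 11 B lineage genes found summed to 114 to 137 CPM and 88.4 to 100.3 CPM (5 lower), and the 8 megakaryocyte genes to 167 to 178 CPM and 175 to 200 CPM (1 higher, 3 lower). The 7 plasma cell genes summed to 730.0 to 813 CPM and 998 to 1163 CPM (1 higher, 1 lower), mostly Jchain, while Xbp1 stood at 109 to 143 CPM and 35.3 to 65.1 CPM. The 10 T and NK genes found summed to 3375 to 3439 CPM and 6328 to 6742 CPM (1 higher, 1 lower), nearly all of it Nkg7, at 3356 to 3420 CPM and 6317 to 6730 CPM. None of the listed genes found in the table was at 0 in all 6 libraries. Cd4, a T cell marker, was near the floor in both groups. It stood at 0.312, 0 and 0.035 CPM in wild type and at 0 in the 3 knockout libraries. The part of these lineages in the results on mitotic genes was not tested.

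With TMM scaling, the set was split: 14 of the 51 genes rose in knockout, 12 fell and 25 did not pass (edgeR quasi-likelihood test, two-sided, Benjamini-Hochberg adjusted p under 0.05 over all genes tested). The 12 that fell became 6 without wild type 2 and 7 without wild type 3 or knockout 2. Over all genes tested, the 2229 called lower became 1342, 1433 and 1910 without wild type 2, wild type 3 and knockout 2, respectively. Over all genes, 17.2% were called higher and 14.4% lower by this test, and 31.7% either way. The median log2 difference of the 51 was -0.07, within a range of -1.08 to 1.29, against -0.09 over all genes. Groups did not overlap for 32 of the 51, with knockout above in 16 and below in 16, where 22.2% and 24.4% of all genes stood. With total counts, 48 of the 51 were lower and 1, Cks2, was higher, against backgrounds of 70.7% lower and 4.24% higher, and Ccna2 and Ube2c did not pass. Their median was then -1.21, against -1.22 over all genes. On that scale knockout libraries lay below all wild-type libraries for 50 of the 51 and above them for 1, where 76.1% and 4.85% of all genes stood. Of the 14 that rose with TMM, 11 were lower with total counts, 2 did not pass and 1 was higher. All 12 that fell with TMM, and all 25 that did not pass, were lower with total counts. Hence each direction below is given for the TMM scale, relative to the centre of the other genes.

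**Figure D1:**
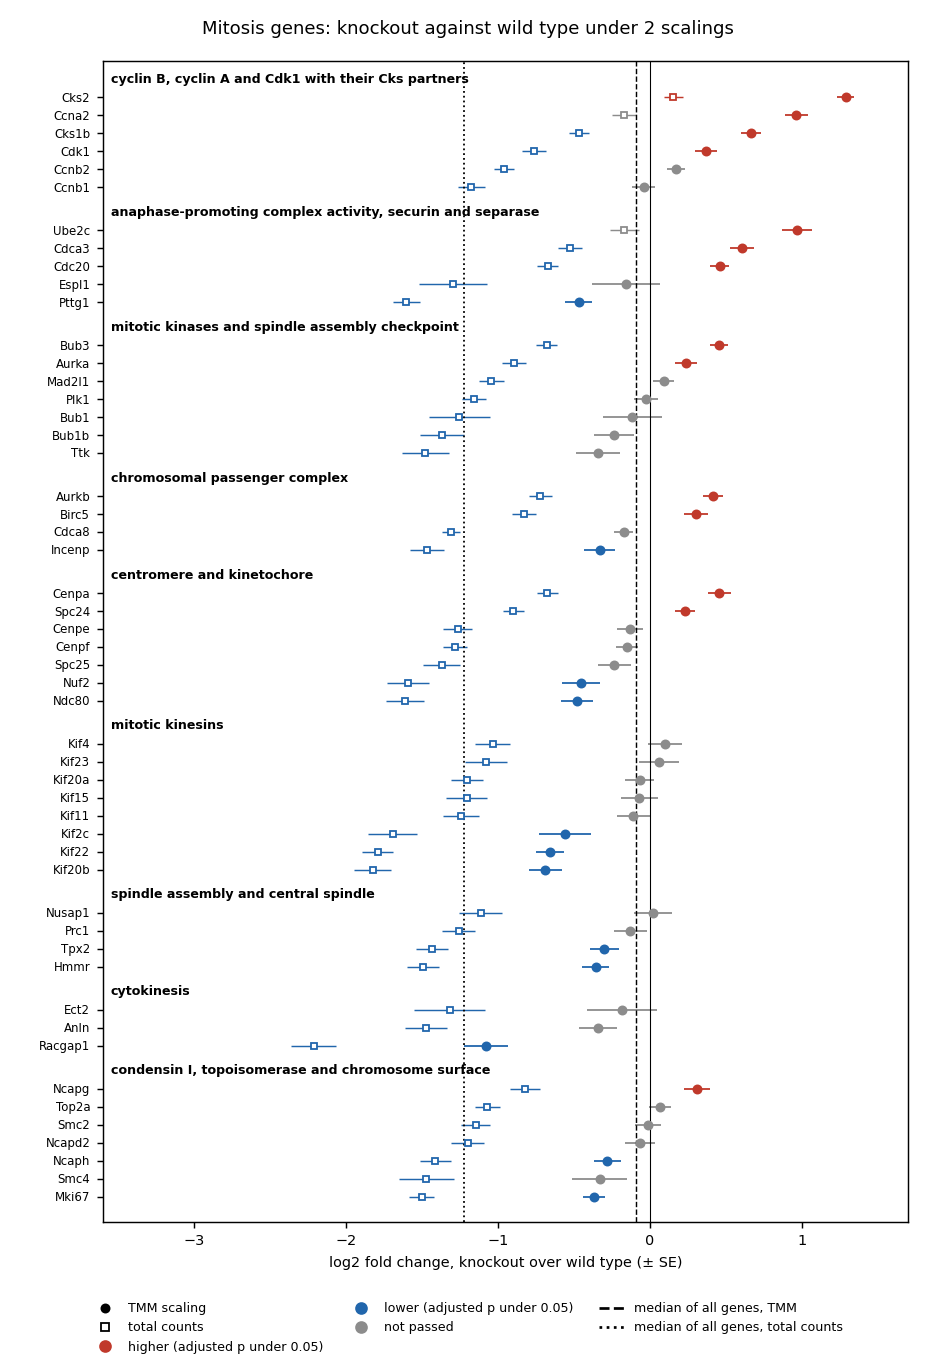
Log2 difference of knockout over wild type for each of the 51 genes with TMM scaling (filled circles) and with total counts (open squares), with bars of 1 standard error; genes are grouped by role, colours give the call, and the dashed and dotted lines mark the median of all genes on each scale. With TMM they spread from -1.08 (Racgap1) to 1.29 (Cks2), while with total counts Cks2 alone was called above 0.

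In the authors' deposited table, 14 of the 51 genes were higher and 11 lower at an adjusted p under 0.05, where 14.3% and 11% of all genes in that table stood. Their direction was the same as with TMM for all 51. The authors' deposited table marks 1 of them, Cks2, as up (log2 difference 1.29, SE 0.0678) and 1, Racgap1, as down (-1.07, SE 0.169), and the other 49 as stable.

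Among the 6 cyclin, Cdk1 and Cks genes, 4 rose, none fell and 2 did not pass with TMM, with a median log2 difference of 0.52, which was -0.61 with total counts. Cks2 (ENSMUSG00000062248, chromosome 13, 51645232 to 51650660, GRCm38), a small subunit that binds Cdk1 and its substrates, stood at 124, 125 and 122 CPM in wild type and 298, 310 and 301 CPM in knockout. All 3 knockout libraries lay far above wild type, a rise of 2.44-fold (log2 1.29, SE 0.06; edgeR adjusted p = 2.74e-07). With total counts Cks2 remained higher, by 0.16 on the log2 scale (SE 0.06; edgeR adjusted p = 0.0413), and that call was lost when any of 5 of the 6 libraries was left out. Its relative Cks1b, which also serves the ligase that degrades p27, rose by 0.67. Ccna2, cyclin A, which acts from S phase into early mitosis, measured 30.5, 30.9 and 32.4 CPM in wild type and 64.7, 60.8 and 57.8 CPM in knockout. The groups were well apart, with a rise of 1.95-fold (log2 0.97, SE 0.08; edgeR adjusted p = 1.21e-05). Cdk1, the kinase that drives entry into mitosis, measured 98.2, 106 and 103 CPM and then 133, 123 and 141 CPM, a rise of 1.29-fold without overlap (log2 0.37, SE 0.07; edgeR adjusted p = 0.00404). Ccnb1, cyclin B and the main partner of Cdk1 at mitosis, measured 106, 115 and 115 CPM in wild type and 101, 110 and 115 CPM in knockout. These overlapped (log2 -0.04, SE 0.07; edgeR adjusted p = 0.73), and Ccnb2 had a value of 0.17 that did not pass (edgeR adjusted p = 0.0627). Thus cyclin A and the kinase rose with TMM and neither B-type cyclin passed, while with total counts cyclin A did not pass and the other 3 were lower.

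Of the 5 genes of anaphase-promoting complex activity and its targets, 3 rose, 1 fell and 1 did not pass (median 0.46, and -0.67 with total counts). Ube2c (ENSMUSG00000001403), the ubiquitin-conjugating enzyme that works with this complex, measured 57.3, 52.0 and 57.2 CPM in wild type and 119, 112 and 93.5 CPM in knockout. The groups did not overlap, and the rise was 1.95-fold (log2 0.97, SE 0.10; edgeR adjusted p = 6.56e-05). Cdc20, the activator of the complex at anaphase, rose by 0.46, and Cdca3, which promotes entry into mitosis through loss of Wee1, rose by 0.61. Pttg1, securin, which keeps separase inactive, went the other way: 52.3, 50.6 and 46.3 CPM in wild type and 37.7, 32.8 and 37.4 CPM in knockout. All knockout values were below all wild-type values, at 0.723 of the wild-type level (log2 -0.47, SE 0.09; edgeR adjusted p = 0.0032). Espl1, separase itself, had a value of -0.16 that did not pass.

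Among the 7 mitotic kinases and checkpoint genes, 2 rose and 5 did not pass (median -0.02, and -1.16 with total counts). Bub3, a checkpoint protein that brings Bub1 and BubR1 to kinetochores, measured 352, 373 and 374 CPM in wild type and 480.5, 504 and 524 CPM in knockout. This was a rise of 1.37-fold with no overlap (log2 0.46, SE 0.06; edgeR adjusted p = 3.79e-04). Aurka, Aurora A, which matures centrosomes and spindle poles, rose by 0.24, a call lost when any of 5 of the 6 libraries was left out. Plk1, the Polo kinase needed for centrosomes and for cytokinesis, measured 45.9, 43.0 and 43.5 CPM in wild type and 44.6, 45.1 and 40.5 CPM in knockout, and the groups overlapped (log2 -0.02, SE 0.08; edgeR adjusted p = 0.85). The kinases Ttk (-0.34) and Bub1 (-0.11), the pseudokinase Bub1b (-0.24) and Mad2l1 (0.09), all of the checkpoint, did not pass.

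The chromosomal passenger complex, which corrects wrong attachments and later guides cytokinesis, was divided: 2 of its 4 genes rose, 1 fell and 1 did not pass (median 0.07, and -1.07 with total counts). Aurkb, its kinase Aurora B, measured 61.1, 63.2 and 61.1 CPM in wild type and 79.7, 82.8 and 84.6 CPM in knockout. It rose by 1.33-fold without overlap (log2 0.41, SE 0.07; edgeR adjusted p = 0.00116). Birc5, survivin, which docks the complex on chromatin, rose by 0.31, a call lost without wild type 2 or wild type 3. Incenp, the scaffold that holds the other members and activates the kinase, measured 25.5, 28.6 and 30.6 CPM in wild type and 23.9, 20.6 and 22.9 CPM in knockout. Its knockout libraries were all lower, at 0.796 of wild type (log2 -0.33, SE 0.10; edgeR adjusted p = 0.0338), but the call was lost without wild type 2, wild type 3, knockout 2 or knockout 3. Cdca8, borealin, the last member, had a value of -0.17 that did not pass.

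At the centromere and kinetochore, 2 of 7 genes rose, 2 fell and 3 did not pass (median -0.15, and -1.28 with total counts). Cenpa, the histone H3 variant that marks centromeres, measured 108, 98.6 and 94.4 CPM in wild type and 133, 135 and 145 CPM in knockout. It rose by 1.37-fold without overlap (log2 0.46, SE 0.07; edgeR adjusted p = 0.00133). Ndc80, the subunit of the Ndc80 complex that grips microtubules, measured 20.2, 24.3 and 24.9 CPM in wild type and 15.6, 17.1 and 17.2 CPM in knockout. Every knockout library was below wild type, at 0.718 of its level (log2 -0.48, SE 0.11; edgeR adjusted p = 0.00782). Its dimer partner Nuf2 fell by 0.45, a call lost without wild type 2, wild type 3, knockout 1 or knockout 2. Of the other dimer of this complex, which anchors it to the inner kinetochore, Spc24 rose by 0.23 and Spc25 had a value of -0.23 that did not pass. The Spc24 call was lost without wild type 2, wild type 3, knockout 2 or knockout 3. Cenpe, a kinetochore motor, and Cenpf, a large kinetochore protein, had values of -0.13 and -0.15 and did not pass.

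None of the 8 mitotic kinesins rose, 3 fell and 5 did not pass (median -0.09). Kif20b, a motor of late mitosis and cytokinesis, measured 20.4, 23.3 and 23.0 CPM in wild type and 13.1, 12.8 and 15.6 CPM in knockout. These did not overlap, and knockout stood at 0.620 of wild type (log2 -0.69, SE 0.11; edgeR adjusted p = 0.00118). Kif22, the chromosome-arm motor Kid, fell by 0.65, and Kif2c, which takes microtubules apart at centromeres, fell by 0.56, a call kept only without knockout 1 when libraries were left out in turn. Values for the spindle motors Kif11 (-0.11) and Kif15 (-0.07), the chromokinesin Kif4 (0.10), and the cytokinesis motors Kif20a (-0.07) and Kif23 (0.06) did not pass.

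In spindle assembly and the central spindle, 2 of 4 genes fell and 2 did not pass (median -0.21). Hmmr, a spindle pole protein, measured 29.7, 33.3 and 30.7 CPM in wild type and 22.7, 26.1 and 24.4 CPM in knockout. Knockout was lower in all 3 libraries, at 0.781 of wild type (log2 -0.36, SE 0.09; edgeR adjusted p = 0.0142), and the call was lost without wild type 2. Tpx2, the activator of Aurora A on the spindle, fell by 0.30, a call kept only without wild type 1 when libraries were left out in turn. Nusap1 (0.02), which stabilises microtubules near chromosomes, and Prc1 (-0.13), which bundles the midzone, did not pass.

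Racgap1 (ENSMUSG00000023015, chromosome 15, 99620496 to 99651656, GRCm38) had the deepest fall of the 51 on this scale. With Kif23 it forms centralspindlin, which builds the midzone and positions the contractile ring. It measured 19.2, 18.3 and 18.8 CPM in wild type and 9.98, 9.77 and 6.79 CPM in knockout. All knockout libraries were far below wild type, at 0.473 of its level (log2 -1.08, SE 0.15; edgeR adjusted p = 4.27e-04). The other cytokinesis genes, the ring scaffold Anln (-0.34) and Ect2 (-0.18), did not pass.

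Of the 7 genes of condensin I, topoisomerase and the chromosome surface, 1 rose, 2 fell and 4 did not pass (median -0.07). Mki67, the Ki-67 protein that coats mitotic chromosomes and is the usual marker of cycling cells, measured 73.1, 79.4 and 82.1 CPM in wild type and 60.7, 59.1 and 62.1 CPM in knockout. The groups were apart (log2 -0.37, SE 0.07; edgeR adjusted p = 0.00422). Top2a, topoisomerase II, which untangles sister chromatids and is another marker of cycling cells, measured 137, 157 and 146 CPM in wild type and 155, 159 and 145.5 CPM in knockout, with overlap (log2 0.07, SE 0.07; edgeR adjusted p = 0.54). The markers of division that are most often read were split by this test: with TMM Cdk1 and Aurkb rose, Mki67 fell, and Ccnb1, Top2a and Plk1 did not pass, while with total counts all 6 were lower. With exon length correction Mki67 no longer passed (-0.17, edgeR adjusted p = 0.0844) and Top2a did, as higher (0.25, edgeR adjusted p = 0.0155).

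Ncapg, a regulatory subunit of condensin I, measured 15.7, 17.0 and 16.6 CPM in wild type and 19.8, 20.6 and 20.8 CPM in knockout. Knockout was higher in all 3 libraries, by 1.24-fold (log2 0.31, SE 0.08; edgeR adjusted p = 0.0211), and the call was lost without wild type 3 or knockout 2. Ncaph, the kleisin of the same complex, fell by 0.28, a call lost on leaving out any of the 6 libraries. Smc2 (-0.01), Ncapd2 (-0.07) and Smc4 (-0.33) did not pass. Smc4, an ATPase of condensin, differed widely within the knockout group, at 120.03, 90.1 and 65.7 CPM, beside 104, 124 and 120 CPM in wild type. Its knockout coefficient of variation, 29.6%, was the highest of the 51 genes in that group, where the median was 6.64%.

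**Figure D2:**
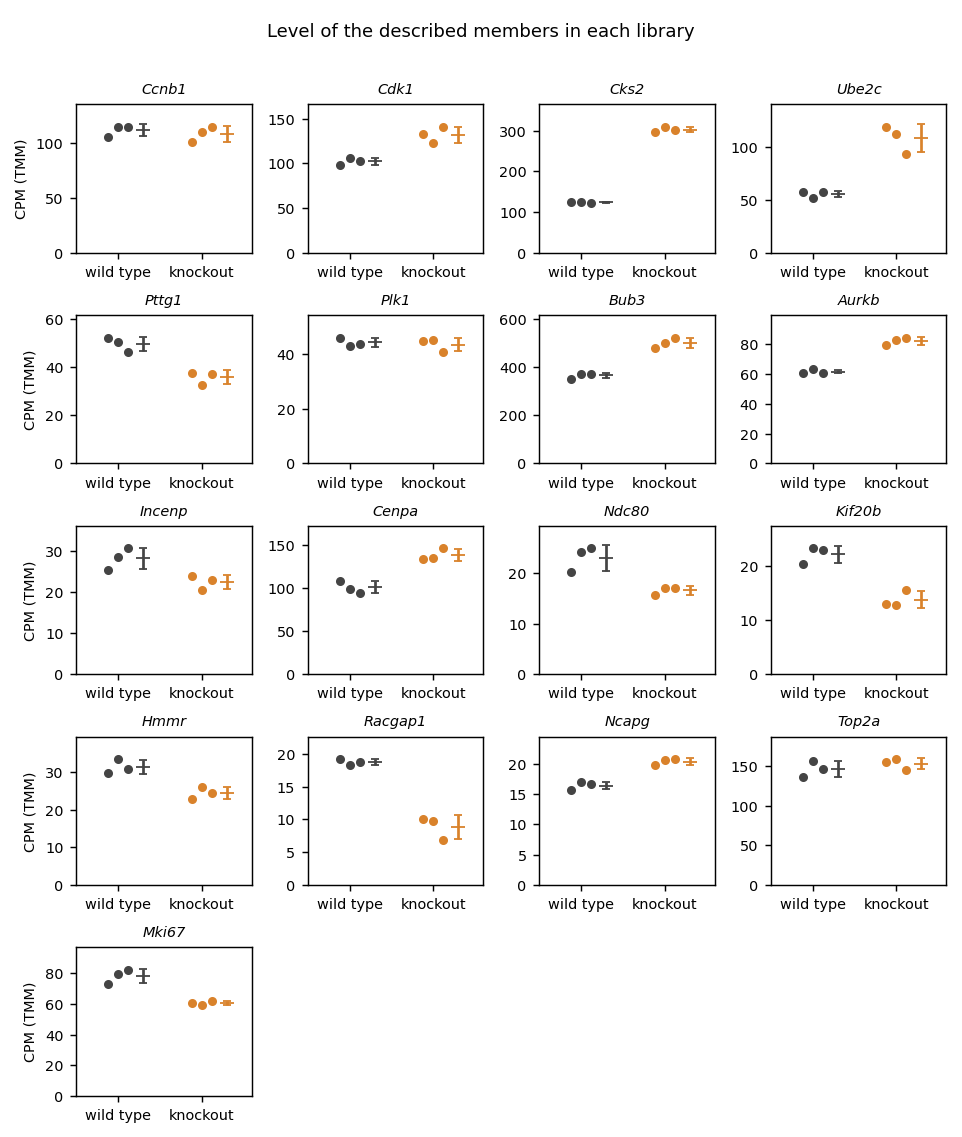
CPM with TMM scaling in each library for 17 of the genes whose values are given above, with 1 panel a gene and every axis starting at 0. Points are libraries and the bars beside them mean ± SD (n = 3); Cks2 lies at 122 to 125 CPM in wild type and 298 to 310 CPM in knockout, Racgap1 lies lower in knockout, and the groups overlap for Ccnb1, Plk1 and Top2a.

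Ratios between partner genes within a library do not depend on library scaling, so 24 pairs from shared complexes or pathways were compared as counts of one gene over counts of the other. Knockout ratios lay wholly above wild type in 12 pairs, wholly below in 6, and overlapped in 6. The pairs were chosen after their values were seen, and no share over other gene pairs is given beside these counts. Which gene of a pair is divided by the other was a choice, so 12 above and 6 below give no common direction. For each of the 18 the exact two-sided permutation test gave p = 0.1, the smallest that 3 against 3 libraries allow, or 0.133 after Benjamini-Hochberg adjustment over the 24, so no single pair could pass.

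Racgap1 over Kif23, the partners in centralspindlin, was 2.15, 1.69 and 2.08 in the wild-type libraries and 0.908, 0.975 and 0.759 in the knockout libraries. The mean ratio in knockout was 0.446 of that in wild type, and Racgap1 counts went from above to below those of Kif23. The gene lengths implied by the deposited values for this pair are close, at 2945 bases for Racgap1 and 2865 bases for Kif23. Ccna2 over Ccnb1 was 0.289, 0.269 and 0.282 in the wild-type libraries and 0.641, 0.551 and 0.502 in the knockout libraries, a 2.01-fold higher mean. Ccnb1 over Cdk1 was lower, at 0.752 of wild type, and Cks2 over Cks1b was 1.54-fold higher. Relative to cyclin B and to Cks1b, transcripts of cyclin A and of Cks2 thus stood higher in all 3 knockout libraries than in any wild-type library. Implied lengths are 692 bases for Cks2 and 849 bases for Cks1b, and 2949 bases for Ccna2 and 2476 bases for Ccnb1. With TMM the log2 differences of Cks2 and Cks1b were 1.29 and 0.67, and after the length correction described further on 0.76 and 0.34. Those of Ccna2 and Ccnb1 were 0.97 and -0.04, and then 1.10 and 0.07.

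Spc24 over Ndc80 was 8.07, 6.32 and 6.14 in the wild-type libraries and 11.02, 10.9 and 11.2 in the knockout libraries. Nuf2 over Ndc80 had means of 0.599 and 0.610 and overlapped, as did Spc25 over Ndc80, so within this complex Spc24 alone lay apart from Ndc80 without overlap. The implied lengths differ here, at 974 bases for Spc24 and 2218 bases for Ndc80, and after the length correction described further on Spc24 had a log2 difference of 0.02 and Ndc80 of -0.38. Aurkb over Incenp was 2.40, 2.21 and 1.99 in the wild-type libraries and 3.33, 4.02 and 3.70 in the knockout libraries, a 1.67-fold higher mean, with implied lengths of 1899 bases and 2448 bases. Tpx2 over Aurka, activator over kinase, had means of 0.572 in wild type and 0.395 in knockout without overlap. Bub3 over Bub1 was 1.51-fold higher and Bub3 over Bub1b 1.62-fold higher, again without overlap. Implied lengths differ in these pairs too, at 3644 bases for Tpx2 and 1864 bases for Aurka. They are 2429 bases for Bub3, 3377 bases for Bub1 and 3671 bases for Bub1b. In condensin I, Ncapg over Smc2 was 1.25-fold higher and Ncaph over Smc2 stood at 0.834 of wild type, while Smc4 and Ncapd2 over Smc2 overlapped.

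**Figure D3:**
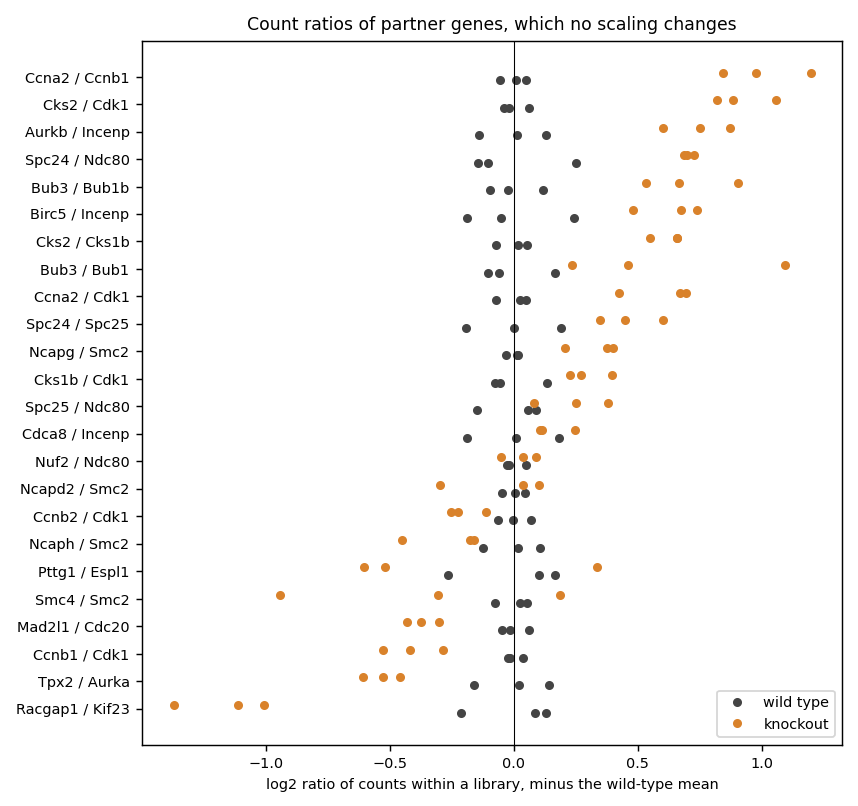
Log2 count ratio of the 24 pairs in each library, minus the wild-type mean of that log2 ratio; dark points are wild-type and orange points knockout libraries. Knockout libraries lie apart from wild type for Racgap1 over Kif23 (0.446 of the wild-type mean) and for Ccna2 over Ccnb1 (2.01-fold), and overlap wild type for Nuf2 over Ndc80.

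The log2 difference was related to gene length. Across the 51 genes, the TMM difference and the log2 of the length implied by the deposited FPKM and counts had a Pearson correlation of -0.44 and a Spearman correlation of -0.34, and across all 15474 genes the values were -0.28 and -0.27. The points share the same 6 libraries, so these are descriptions. Median length was 1825 bases in genes that rose, 2603 bases in those that fell and 3377 bases in those that did not pass, against 2262 bases over all genes tested. Under 1000 bases there were 6 of the 51, of which 5 rose, among them Cks2, and 1 fell, Pttg1. Their median was 0.49, and that of all 2946 genes in this band was also 0.49. Of the 8 genes from 1000 to under 2000 bases, 5 rose and none fell (median 0.33, all genes -0.07). Of the 26 genes from 2000 to under 4000 bases, 3 rose and 9 fell (median -0.15, all genes -0.15). Of the 10 genes from 4000 to under 8000 bases, 1 rose and 1 fell (median -0.12, all genes -0.23). Mki67 alone was longer (-0.37, all genes -0.28). Members thus lay near the median of all genes in some bands and above it in others. The share of all genes called within each band is not given.

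After a smooth correction for this length in each library, 14 of the 51 were higher and 5 lower, where 16.5% and 12.6% of all genes stood. Cks2 then had a log2 difference of 0.76, Ube2c 0.75, Ccna2 1.10, Racgap1 -0.95, Kif20b -0.47 and Pttg1 -0.85. Mki67 had -0.10 (edgeR adjusted p = 0.299), Spc24 0.02 (0.844), Birc5 0.08 (0.472), Incenp -0.22 (0.129), Nuf2 -0.36 (0.0537) and Kif2c -0.44 (0.085), and all 6 no longer passed. Hmmr (-0.20), Tpx2 (-0.13) and Ncaph (-0.16) also lost their call, whereas Top2a (0.26) and Ccnb2 (0.19) now passed. With merged exon length in place of this length, 16 were higher and 5 lower (backgrounds of 16.6% and 11.6%), and with transcript GC content added to it, 15 and 4 (17.1% and 12.2%). Ndc80 did not pass with the last of these (-0.23, edgeR adjusted p = 0.0718). Whether length itself set any of these differences was not tested.

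**Figure D4:**
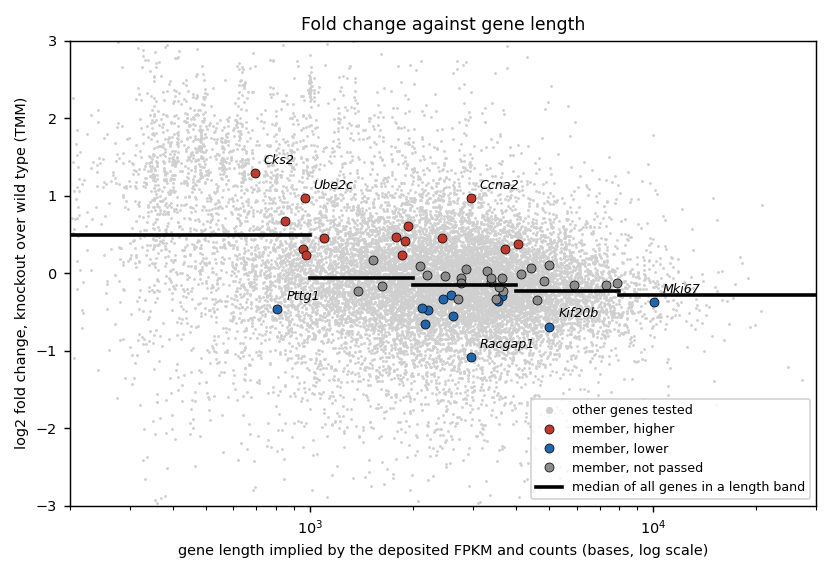
Log2 difference with TMM scaling against the gene length implied by the deposited FPKM and counts (bases, log axis); small grey points are other genes tested, large points the 51 genes by call, and black lines the median of all genes in each length band, with 379 other genes outside the axes. Cks2 and Ube2c lie in the shortest band with the higher median (0.49), while Ccna2 and Racgap1 have similar lengths and opposite differences (0.97 and -1.08).

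In length-scaled units the set spanned a wide range. The deposited FPKM, which takes library totals as they are, was highest in wild type for Cks1b, at 378 ± 11.7 in wild type and 274 ± 15.6 in knockout (SD, n = 3 each). In wild type Cks2 followed with 221 ± 9.56 FPKM (247 ± 8.02 in knockout), and then Spc24 with 202 ± 5.36 FPKM (106 ± 8.79 in knockout). Cks1b and Cks2 thus stood closer together in knockout, and Spc24, next to Cks2 in wild type, was below both it and Bub3 (a mean of 124 FPKM) in knockout. The lowest were Espl1, with means of 1.16 and 0.461 FPKM, and Ect2, with 1.45 and 0.607 FPKM. Even so, the smallest count of any of the 51 genes in any library was 91.

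A further 129 genes of mitosis outside this set came from lists of the kinetochore, checkpoint, anaphase-promoting complex, mitotic entry, spindle, condensin II, cytokinesis and G2/M transcription. With TMM, 9 rose, 34 fell and 86 did not pass, where 17.2% of all genes were higher and 14.4% lower, with a median of -0.22. With total counts 126 were lower and 1 higher, where 70.7% of all genes were lower and 4.24% higher. Without wild type 2, 16 fell, and without wild type 3, 21 fell. Over all genes tested, 1342 and 1433 were then lower, against 2229 with every library. With exon length correction 17 were higher and 19 lower, where 16.6% and 11.6% of all genes stood. With exon length and GC correction there were 18 and 18, against 17.1% and 12.2% of all genes. By list, 2 of 30 other kinetochore genes rose and 9 fell, 1 of 17 anaphase-promoting complex genes rose and 4 fell, 3 of 31 spindle and centrosome genes rose and 7 fell, and none of 8 cytokinesis genes rose and 3 fell. Stmn1, stathmin, which destabilises microtubules, measured 567, 661 and 704 CPM in wild type and 2272, 2150 and 2099 CPM in knockout. It was 3.37-fold higher (edgeR adjusted p = 4.08e-07), and with total counts it was still higher, by 0.62 on the log2 scale. Nfyc, a subunit of NF-Y, rose from a mean of 37.9 to 57.9 CPM. Of the other NF-Y subunits, named after their values were seen, Nfyb fell by 0.40 on the log2 scale and Nfya had a value of 0.50 that did not pass. Cdca5, sororin, which protects sister cohesion, fell from 74.7 to 49.6 CPM, and Cenpt, which links Ndc80 to the centromere, fell from 18.3 to 11.1 CPM.

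Genes of DNA replication, the step before mitosis, were set beside these. Of 44, 17 rose, 5 fell and 22 did not pass with TMM (median 0.10), where 17.2% of all genes were higher and 14.4% lower. With total counts 43 were lower and none higher, where 70.7% of all genes were lower and 4.24% higher. The 5 that fell became 2 without wild type 2 or knockout 2 and 3 without knockout 1. Over all genes tested, the 2229 lower became 1342, 1910 and 2082 without wild type 2, knockout 2 and knockout 1, respectively. Mcm6, part of the replicative helicase, went from a mean of 183 to 312 CPM, and Dut, which keeps uracil out of DNA, from 68.3 to 137 CPM. Chaf1a, a histone chaperone subunit, fell from 25.8 to 15.6 CPM and Prim2, a primase subunit, from 39.9 to 26.8 CPM. The difference between these lists and the 51 genes was not tested.

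Counting could mix some of these genes with neighbours, since the sources used here do not give a strand setting. Exons of 13 of the 51 overlap those of another gene. These include Ccna2, with 510 bases shared with Exosc9 on the other strand, Ube2c, with 592 bases shared with Tnnc2, Ncapg, with 944 bases shared with Lcorl, and Kif20a, with 1271 bases shared with Cdc23. Annotated pseudogene copies exist for Kif22, Ccnb1, Ccnb2 and Kif4, so their values are uncertain to that extent.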

How the data were processed

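RNA sequencing with a TruSeq kit on a NovaSeq instrument was deposited for 6 libraries. Tools listed in the submitters' processing notes are featureCounts 2.0.1, HISAT2 2.2.1, fastp 0.22.0 and DESeq2 1.32.0, with build mm10. The deposited table holds raw counts per gene, and length-scaled values, read here as FPKM because for 98.9% of 562 genes with a single transcript and over 500 counts they lay within 1% of a constant multiple of FPKM from the counts. It also holds the authors' comparison: a deposited mean signal, log2 fold change, test score, p-value and adjusted p-value.

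Counts were tested with edgeR 4.0.16 (R 4.3.3), filterByExpr defaults, TMM, and a quasi-likelihood test of group over 15474 of 18491 genes, with calls at an adjusted p (Benjamini-Hochberg) under 0.05. SE is the log2 fold change over the square root of F. CPM uses TMM library sizes. Total counts of 42235077 to 58106099 limit precision only for the lowest genes. Replicate libraries differed by more than sampling noise. Length corrections used lowess (span 0.3, prior count 2) on GENCODE vM21 exon length or on the length implied by FPKM, and GC content came from annotated transcripts; the implied length and GC were added after the data were seen. The test was checked on simulated counts.

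The 51 genes and all lists were chosen with earlier results of these data known, and the 24 pairs after their values were seen. Values per library are given for Mki67, Ccnb1, Cdk1, Top2a, Aurkb and Plk1 and for the largest non-overlapping rise and fall of each role; those of Ccna2 and Smc4 and the pair lengths were chosen after values were seen. Of other lists, the genes of lowest p in each direction are named. Alternatives were total counts, DESeq2 (1.42.0) size factors and Wald test, no filter, length and GC corrections, a replicate block and leaving out each library.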

Additional observations from a re-analysis of the deposited data

How the results depend on the processing

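Total counts in place of TMM changed most values. The 14 members called higher became 1 and the 12 lower became 48, with a median of -1.21 in place of -0.07. The other mitotic genes went from 9 higher and 34 lower to 1 and 126, and the replication genes from 17 and 5 to 0 and 43. The sign turned for Ccna2 (-0.17), Ccnb2 (-0.96), Cdk1 (-0.76), Cks1b (-0.46), Ube2c (-0.17), Cdc20 (-0.67), Cdca3 (-0.53), Aurka (-0.89), Bub3 (-0.68), Mad2l1 (-1.04), Aurkb (-0.72), Birc5 (-0.83), Cenpa (-0.67), Spc24 (-0.90), Kif23 (-1.08), Kif4 (-1.03), Nusap1 (-1.11), Ncapg (-0.82) and Top2a (-1.07). This shift is that of all genes (median -1.22), of which 70.7% were lower and 4.24% higher with total counts.

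Exon length correction gave 5 members lower, a median of 0.072, and 17 other mitotic genes higher and 19 lower. Correction for the implied length gave 5 members lower, a median of 0.073 and 15 other mitotic genes higher. Exon length with GC content gave 4 members lower, a median of 0.10, and 18 other mitotic genes higher and 18 lower. The cause of these moves was not tested.

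Leaving out 1 library at a time gave 10 to 13 members higher and 6 to 10 lower (6 without wild type 2, 7 without wild type 3 or knockout 2), and a median of -0.11 to -0.03. Other mitotic genes gave 6 to 10 higher and 16 to 31 lower (16 without wild type 2, 21 without wild type 3). Replication genes gave 14 to 17 higher and 2 to 6 lower (2 without wild type 2 or knockout 2, 3 without knockout 1). With total counts, members higher ran from 0 to 1. With TMM, leaving out 1 library gave 2228 to 2560 of all genes tested higher and 1342 to 2169 lower. With every library these were 2669 and 2229. Fewer libraries leave fewer degrees of freedom.

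The replicate block gave 12 members higher and 10 lower, and all 22 were among the 26 called without it. Of all genes tested, the block gave 2467 higher and 1906 lower. Deviations of libraries with the same number had correlations of 0.04, -0.01 and 0.05, so the numbers were not taken as pairs, and not every library correlated best with its own number. DESeq2's Wald test gave 15 members higher and 11 lower, and no filter gave 13 and 13. Over all genes, the Wald test gave 2862 higher and 2198 lower, and no filter gave 2532 and 2230 of 18491. In every setting other than total counts, 10 of the 14 higher (Ccna2, Cdk1, Cks1b, Cks2, Ube2c, Cdc20, Cdca3, Bub3, Aurkb, Cenpa) and 4 of the 12 lower (Pttg1, Kif20b, Kif22, Racgap1) kept their call.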

Other observations

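The deposited FPKM of some members did not follow their counts. Smc2, a condensin ATPase, had FPKM values of 10.9, 16.4 and 15.0 in knockout, where its TMM-scaled counts were 75.2, 79.5 and 90.1 CPM. Kif15, a spindle motor, had 7.70, 12.2 and 7.77 FPKM in wild type with 15.6, 21.1 and 19.3 CPM. Some members differed in this way between the groups. Prc1 had a mean FPKM of 9.83 in wild type and 5.91 in knockout, while its total-count level in knockout was 0.418 of wild type. Cenpf had 5.74 and 3.26 FPKM, and a total-count level of 0.411 of wild type. The gene length implied by FPKM and counts, taken as the median over libraries for the length correction, therefore differed between the groups for these genes. The cause was not tested.

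Members of higher level tended to have higher log2 differences. Across the 51 genes the TMM difference and the log2 mean CPM had a Pearson correlation of 0.55 and a Spearman correlation of 0.56, and across all genes tested the values were 0.27 and 0.23. These points share the same libraries and are a description.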
